A study of Mus musculus with 12 samples.

Results

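Muc13, Mc5r, Rab38, Krt18 and B230118H07Rik are 5 genes without a textbook role in blood lineage choice, described here across mouse bone marrow progenitors. They were selected on these data: their mean transcript level ran in the order LMPP above GMP above CLP, so that order is a description and carries no test. They are 5 of 38924 gene IDs in the deposited table, and all 5 are among the 12718 genes that reached at least 1 TPM (a level relative to transcript length and to the library total) in at least 4 libraries. The order itself was held by 15.4% of those genes.

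Bulk RNA-seq was made from 3 cell types, sorted from the marrow of wild-type female C57Bl/6J mice, with 4 libraries each and 2 of these in each of 2 batches named in the sample titles. Lymphoid-primed multipotent progenitors (LMPP) were gated as lineage-negative cells with Sca1, cKit and CD34, high Flk2 and no CD150. Common lymphoid progenitors (CLP) were gated as lineage-negative cells with IL7Ra and Flk2 and low Sca1 and cKit, and granulocyte-monocyte progenitors (GMP) as lineage-negative, Sca1-negative and CD150-negative cells with cKit, CD34 and Fc gamma receptor. Neither the donors' age nor the RNA behind each library is stated in the labels. Separate animals per library are not stated either, so a p-value reflects the spread among these libraries alone, and part of that spread may be technical. Sequencing depth is unknown, because TPM keeps no read totals.

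LMPP can still form lymphoid and some myeloid cells, CLP form mainly lymphocytes and GMP form granulocytes and monocytes. Muc13 is a membrane mucin, best known from gut epithelium, and RefSeq lists Ly64 among its older names. Mc5r is a melanocortin receptor that signals through adenylate cyclase. Rab38 is a small GTPase of melanosomes and other lysosome-related organelles, Krt18 is a keratin of simple epithelia, and B230118H07Rik (Iftap in RefSeq, also NWC) lies across the Rag1 and Rag2 genes.

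Some libraries stood apart before any comparison of the 5 genes. In batch 2, LMPP replicate 1 and CLP replicate 1 had summed erythroid markers of 28300 and 13480 TPM, against 185.9 to 1179 TPM in the other LMPP and 39.7 to 2460 TPM in the other CLP. These 2, called the haemoglobin-rich pair from here on, had the highest summed neutrophil markers of their types, 23079 and 10620 TPM. CLP batch 2 replicate 1 also held 1920 TPM of GMP-type markers (Elane, Mpo, Fcgr3, Ms4a3, Prtn3), against 158.4 to 250.8 TPM in the other CLP libraries. Both CLP libraries of batch 2 were low in Flt3, the gene of the gated Flk2, with 8.91 and 17.0 TPM against 138.3 and 146.1 TPM in batch 1. Il7r and Dntt, of the listed CLP markers, were present in all 4 CLP libraries, at 76.6 to 129.8 TPM and 922 to 1848 TPM. Dntt was also at 485.3 to 698.4 TPM in LMPP. Ly6d, of the same list, was at 515.7 and 117.2 TPM in batch 1 of CLP and at 53.4 and 54.8 TPM in batch 2.

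The 5 genes had different shapes behind their shared order. Per transcript length, mean levels in LMPP ran from Muc13 (69.3 TPM) through B230118H07Rik (53.8 TPM), Rab38 (50.2 TPM) and Mc5r (22.6 TPM) to Krt18 (11.9 TPM). Every LMPP library was above every CLP library for 5 of 5 genes, as for 8.81% of all tested genes, and every CLP library was below every GMP library for 5 of 5, as for 9.12%. LMPP and GMP libraries did not overlap for 3 of 5 (Muc13, Mc5r and Rab38), against 22.7% of all tested genes. These counts follow from how the genes were chosen. A low bulk level cannot tell fewer expressing cells from less RNA in each cell.

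**Figure D1:**
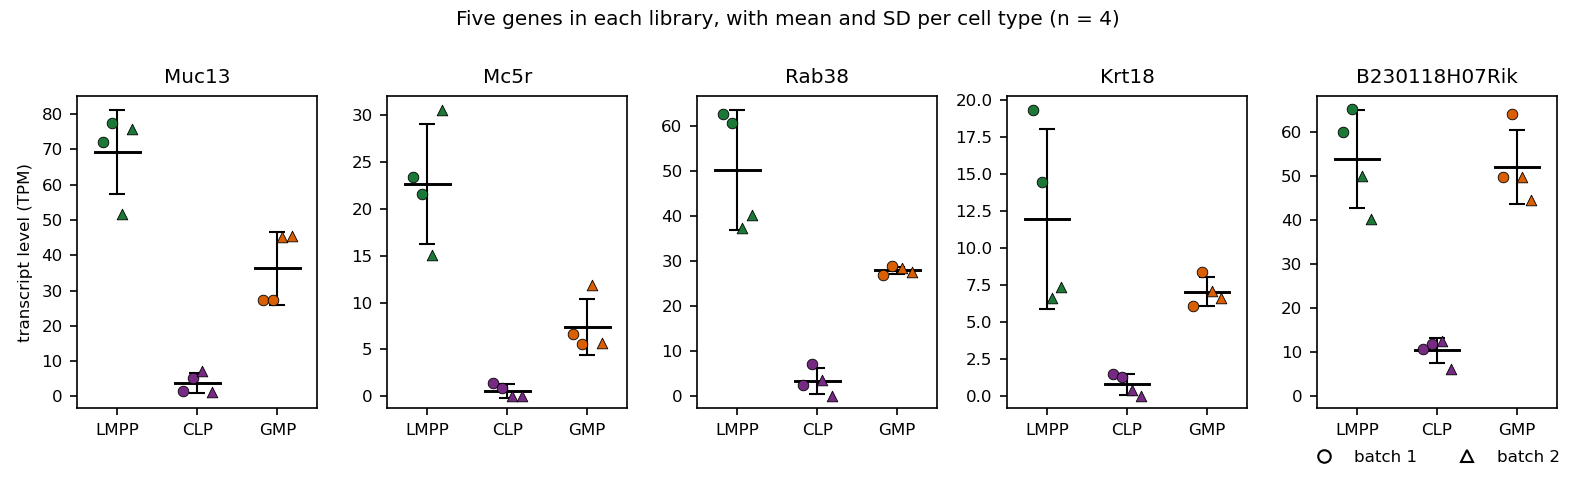
Transcript level (TPM, linear axes with their own scale) of the 5 genes in each of the 12 libraries, with batch 1 as circles and batch 2 as triangles; horizontal lines are means and bars 1 SD (n = 4 per cell type). CLP libraries are the lowest for each gene, while LMPP and GMP libraries overlap for Krt18 and B230118H07Rik.

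Muc13 was the most abundant of the 5 in LMPP and kept a substantial level in GMP. It stood at 72.1, 77.6, 51.6 and 75.8 TPM in LMPP, at 1.51, 5.15, 7.07 and 1.21 TPM in CLP, and at 27.3, 27.3, 45.2 and 45.5 TPM in GMP, with batch 1 given before batch 2 within each type here and below. The lowest LMPP value came from the haemoglobin-rich library, and the types did not overlap. The ratio of means was 18.5 for LMPP over CLP and 1.91 for LMPP over GMP. The log2(TPM + 1) scale was used for all differences and understates those of low genes. On it, LMPP exceeded CLP by 4.09 ± 0.382 (SE from the 12-library fit) and GMP by 0.94 ± 0.382. That fit shares 1 spread per gene over the types, the uneven CLP libraries included. With LMPP and GMP alone in the fit, the difference from GMP was 0.94 ± 0.203. With median-ratio scaling of the 12 libraries it was 0.66 ± 0.367. The highest CLP value belonged to the library with the high GMP-type, erythroid and neutrophil markers, and without the haemoglobin-rich pair the difference between LMPP and CLP was 4.55 ± 0.373. Whether those cells account for the Muc13 of that library was not tested. Of the 12 genes in the table named Muc, Muc13 alone reached 1 TPM in at least 4 libraries.

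Muc13 lies on the forward strand at chr16:33794037-33819934 (mm10), a protein-coding gene. Its promoter is shown because it contrasts in base composition with that of Krt18 further on; it spans chr16:33793787-33794086, from 250 bases before to 50 bases after a RefSeq start (GRCm38.p6). No letters are in capitals, because capitals mark CG pairs and the window holds 0 of them; 5.4% of the 32851 promoters of the same length in the RefSeq table have no more than that.
Muc13: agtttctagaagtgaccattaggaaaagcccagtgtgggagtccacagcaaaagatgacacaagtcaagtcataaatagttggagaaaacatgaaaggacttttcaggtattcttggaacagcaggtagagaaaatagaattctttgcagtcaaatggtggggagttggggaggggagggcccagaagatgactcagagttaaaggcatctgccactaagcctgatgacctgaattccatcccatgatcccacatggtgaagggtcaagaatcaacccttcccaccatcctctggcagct

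Mc5r was the gene nearest to absence in CLP. The receptor binds the melanocortin peptides and couples to cyclic AMP, and is best known from sebaceous and other exocrine glands. It was listed at 23.4, 21.6, 15.1 and 30.5 TPM in LMPP, at 1.47, 0.94, 0 and 0 TPM in CLP, and at 6.63, 5.59, 11.9 and 5.69 TPM in GMP. Both zeros were in batch 2 of CLP, and 1 of 4 CLP libraries reached 1 TPM. The types did not overlap. LMPP averaged 22.6 ± 6.36 TPM, CLP 0.602 ± 0.729 TPM and GMP 7.44 ± 2.98 TPM (SD, n = 4 each). The difference was 3.96 ± 0.341 for LMPP minus CLP and 1.5 ± 0.341 for LMPP minus GMP, the largest of the 5 genes against GMP. The gene lies on chromosome 18 at 68337596 to 68342446 (mm10, forward strand, protein coding).

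Rab38 was even across GMP and reached 1 TPM in 3 of 4 CLP libraries. It stood at 62.7, 60.7, 37.3 and 40.2 TPM in LMPP, at 2.51, 7.29, 3.57 and 0.17 TPM in CLP, and at 27.0, 28.8, 28.4 and 27.6 TPM in GMP. Both LMPP libraries of batch 1 were above both of batch 2, and the lowest LMPP value still lay above the highest GMP value. LMPP exceeded CLP by 3.82 ± 0.397 and GMP by 0.79 ± 0.397, with ratios of means of 14.8 and 1.8. With LMPP and GMP alone in the fit, the difference from GMP was 0.79 ± 0.149. With median-ratio scaling of all libraries it was 0.51 ± 0.385. Rab38 lies at chr7:88430273-88491572 (mm10, forward strand, protein coding).

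Krt18 was above CLP in every LMPP library but was not separated from GMP. It stood at 19.3, 14.5, 6.65 and 7.38 TPM in LMPP, at 1.53, 1.30, 0.46 and 0 TPM in CLP, and at 6.11, 8.39, 7.11 and 6.62 TPM in GMP. The batch 1 LMPP libraries were above all GMP libraries, while those of batch 2 lay within the GMP range. LMPP exceeded CLP by 2.80 ± 0.263 and GMP by 0.57 ± 0.263 over all libraries. Within batches the difference from GMP was 0.03 ± 0.352 in batch 2 and 1.12 ± 0.249 in batch 1. Annotated transcripts of Gm5200 and Gm17847 match Krt18 over 1269 and 1065 bases at 90.1% and 86.4% identity. Neither gene was found by its symbol among the deposited values. Whether reads were split between copies, or reads of the copies were counted as Krt18, is unknown. The Krt18 level is therefore uncertain.

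Krt18 lies at chr15:102028180-102032027 (mm10, forward strand, protein coding). Its promoter, shown for its many CG pairs in capitals, spans chr15:102027966-102028265 around a RefSeq start (GRCm38.p6). The window holds 17 CG pairs, a number not exceeded in 70.3% of the promoters in the table. None of 6 motifs searched on both strands was found in the Krt18 or the Muc13 window. These were TGTGGT (RUNX, in 16.8% of all promoters), AGATAA (the motif of GATA factors, 11.2%), GGAAGT (ETS, 23.8%), CAGCTG (E proteins, 16.3%), TATAAA (of the core promoter, 13.6%) and ACTACANTT (ZNF143, 1.57%). The last was added after the B230118H07Rik promoter had been read.
Krt18: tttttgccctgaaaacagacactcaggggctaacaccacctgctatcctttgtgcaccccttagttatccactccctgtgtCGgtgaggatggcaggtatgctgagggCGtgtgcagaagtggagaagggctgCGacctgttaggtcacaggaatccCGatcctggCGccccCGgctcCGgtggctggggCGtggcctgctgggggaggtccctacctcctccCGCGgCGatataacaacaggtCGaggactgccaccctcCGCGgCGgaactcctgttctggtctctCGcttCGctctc

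B230118H07Rik went against a description as a gene lost in CLP. It stood at 60.0, 65.2, 49.9 and 40.1 TPM in LMPP, at 10.7, 11.9, 12.6 and 6.29 TPM in CLP, and at 49.7, 63.9, 49.6 and 44.5 TPM in GMP. All 4 CLP libraries were well above 1 TPM, and LMPP and GMP covered the same range. LMPP averaged 53.8 ± 11.1 TPM, CLP 10.4 ± 2.85 TPM and GMP 51.9 ± 8.32 TPM (SD, n = 4 each). LMPP exceeded CLP by 2.28 ± 0.189, whereas the difference from GMP was 0.04 ± 0.189. The sign of that last difference turned under several settings, among them median-ratio scaling (-0.24), quantile normalization (-0.01) and batch 2 alone (-0.07). It also turned without the haemoglobin-rich pair (-0.02), without LMPP batch 1 replicate 2 (-0.01) and without GMP batch 1 replicate 1 (-0.04). Of the 5 genes this was therefore the closest to the edge of the selection, and it separated CLP from the other types only.

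The CLP values themselves were uneven. Of the 20 values that the 5 genes had in CLP, 14 were at 1 TPM or more. CLP batch 2 replicate 2 gave the lowest CLP value for 5 of 5 genes, tied at 0 with replicate 1 of its batch for Mc5r. That library had the lowest sum of GMP-type markers (158.4 TPM) and of megakaryocyte markers (0.55 TPM, against 3.80 to 18.8 TPM) among CLP. Other markers went the opposite way. Its erythroid sum was 2460 TPM, against 543.8 and 39.7 TPM in batch 1 of CLP. Its neutrophil sum was 1724 TPM, against 153.15 and 11.37 TPM there. LMPP batch 2 replicate 1, the haemoglobin-rich library, gave the lowest LMPP value for 4 of 5 genes. The part of other cells in these values was not tested. Without the haemoglobin-rich pair the differences between LMPP and CLP were 3.94 ± 0.377 for Mc5r, 4.07 ± 0.454 for Rab38, 2.94 ± 0.307 for Krt18 and 2.41 ± 0.174 for B230118H07Rik.

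The selection used means over both batches, so each batch can be read for how even the differences were, though not as a test. LMPP minus CLP was 3.91 ± 0.572 in batch 2 and 4.27 ± 0.361 in batch 1 for Muc13. For Mc5r it was 4.49 ± 0.477 in batch 2 and 3.42 ± 0.228 in batch 1, and for Rab38 4.10 ± 0.591 and 3.54 ± 0.349 in the same order. For Krt18 and B230118H07Rik the batches lay within 0.2 of each other, at 2.73 and 2.88 and at 2.2 and 2.37. Against GMP every gene had the smaller difference in batch 2. For Muc13 it was 0.46 ± 0.572 in batch 2 and 1.42 ± 0.361 in batch 1, and for Rab38 0.45 ± 0.591 and 1.12 ± 0.349. Mc5r kept the largest difference from GMP in either batch, with 1.28 ± 0.477 in batch 2 and 1.73 ± 0.228 in batch 1.

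**Figure D2:**
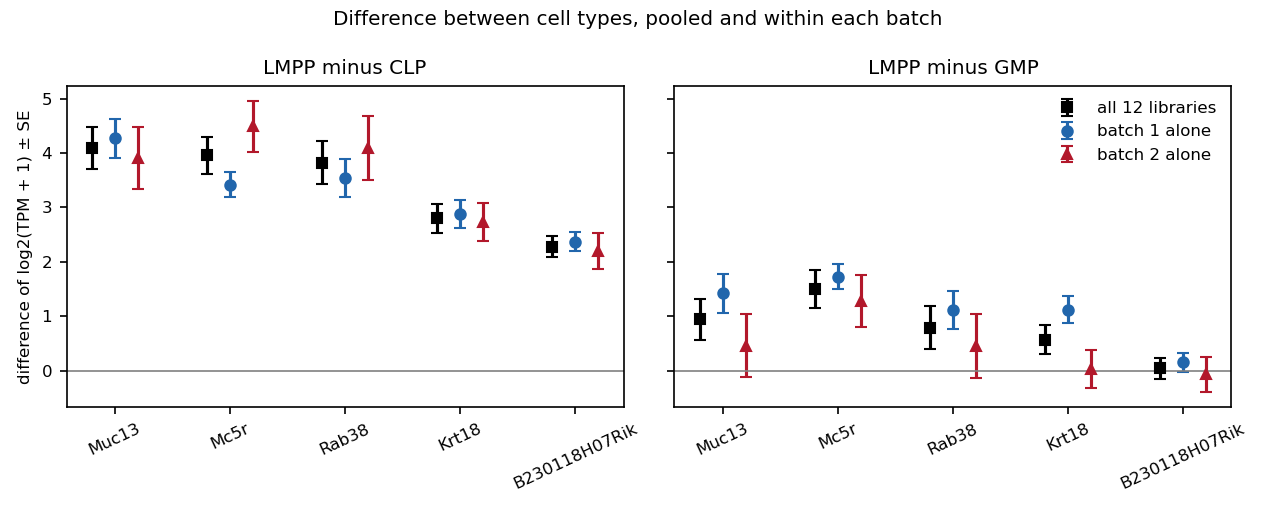
Difference of log2(TPM + 1) between cell types (vertical axis, ± SE) for the 5 genes, from all 12 libraries (squares), batch 1 alone (circles) and batch 2 alone (triangles). LMPP minus CLP lies between 2.2 and 4.49 in every set, while LMPP minus GMP of Krt18 and B230118H07Rik is near 0 in batch 2 (0.03 and -0.07).

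The difference between batches within a type played no part in the selection and was tested with limma over all tested genes. In CLP, Mc5r and Krt18 were near 0, reaching 1 TPM in 1 and 2 of the 4 libraries, and both passed the filter on low values through LMPP and GMP. Mc5r was listed at 0 in both batch 2 libraries against a mean of 1.2 TPM in batch 1 (log2 difference -1.13 ± 0.384, adjusted p = 0.0467), and Krt18 at 0.23 against 1.42 TPM (-1 ± 0.292, adjusted p = 0.0253). These are 2 of 5 genes, where 32% of all tested genes were called, a share near the background. The batch 2 CLP libraries also had the low Flt3 described above, whose part was not tested. Nothing is drawn from these calls on values near 0: with no filter on low values the adjusted p was 0.101 for Mc5r and 0.0529 for Krt18, and leaving out libraries changed them as follows. The Mc5r call was lost when any 1 of the CLP libraries was left out, and without either LMPP library of batch 1 or without either GMP library of batch 1 (adjusted p between 0.0671 and 0.189). The Krt18 call was lost without CLP batch 1 replicate 1 or 2 or CLP batch 2 replicate 2 (0.0786 to 0.103).

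In LMPP, limma called 0 of 5 genes between batches, with 1 of 5 at an unadjusted p under 0.05, where 4.61% of all tested genes were called. That gene was Krt18, with a mean of 7.02 TPM in batch 2 and 16.9 TPM in batch 1 (-1.15 ± 0.292, adjusted p = 0.0542). It crossed the threshold when CLP batch 2 replicate 1 or replicate 2 was left out (adjusted p = 0.0222 and 0.0218) and under both other scalings. In GMP limma called 0 of 5, with 0 at an unadjusted p under 0.05, against 8.22% of all tested genes. Whether a batch difference was unequal between types was tested for each gene and pair of types. None of these 15 tests passed in limma (lowest adjusted p = 0.14), and 3 of 15 had an unadjusted p under 0.05. The share of all tested genes called was 8.58% for LMPP against CLP, 0.0157% for LMPP against GMP and 5.48% for CLP against GMP. All shares in this paragraph are at an adjusted p under 0.05. No share was computed at an unadjusted p, so nothing is drawn from the counts at that threshold. Without CLP batch 2 replicate 1, batch 2 of CLP is 1 library, assumed to vary like the other groups. No count of calls is read from that fit. The library that remains holds the lowest CLP value of each of the 5 genes, shared at 0 for Mc5r.

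B230118H07Rik and the genes inside its span had opposite orders of CLP and LMPP. The span, chr2:101560781-101649532 on the reverse strand (mm10), contains Rag2 on the forward strand (chr2:101624718-101632529) and Rag1 on the reverse strand (chr2:101638282-101649501), the genes of the recombinase that joins antigen receptor segments. Rag2 stood at 7.94, 9.06, 11.1 and 10.7 TPM in LMPP, at 74.8, 61.4, 78.2 and 89.0 TPM in CLP, and at 2.72, 1.32, 0.65 and 1.46 TPM in GMP. It was highest in CLP, where B230118H07Rik was lowest. Rag2 was lower in LMPP than in CLP (-2.84 ± 0.24, adjusted p = 8.62e-05) and higher than in GMP (2.13 ± 0.24, adjusted p = 9.62e-05), without overlap in any library.

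Rag1 ran the same way with more spread. It stood at 0.51, 0.68, 4.00 and 0.62 TPM in LMPP, at 38.5, 6.00, 35.8 and 64.6 TPM in CLP, and at 0.15, 0.25, 0 and 0.06 TPM in GMP. Rag1 was lower in LMPP than in CLP (-3.75 ± 0.542, adjusted p = 0.00168), and the difference from GMP was 0.94 ± 0.542 (adjusted p = 0.214). Traf6, a signalling ubiquitin ligase gene on the far side of Rag1, had means of 17.8 ± 2.7 TPM for LMPP, 25.9 ± 13.5 TPM for CLP and 13.8 ± 2.77 TPM for GMP (SD, n = 4 each) and was called in neither comparison. All calls of Rag1 and Rag2 given here held with each library left out. However, Rag1 passed the filter on low values only through the CLP libraries and LMPP batch 2 replicate 1. It failed the filter, and so had no test, without the haemoglobin-rich pair and in either batch alone.

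Exons of B230118H07Rik share 208 of the 3424 exonic bases of Rag2, on the opposite strand, and 80 of the 6608 exonic bases of Rag1. The sources used here do not say whether counting used strand, so reads in the stretch shared with Rag2 cannot be told apart. Rag1 lies on the same strand as B230118H07Rik, so strand could not separate reads in their shared stretch. The B230118H07Rik value in CLP, where Rag1 and Rag2 are high, could therefore hold reads of either, which was not tested.

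**Figure D3:**
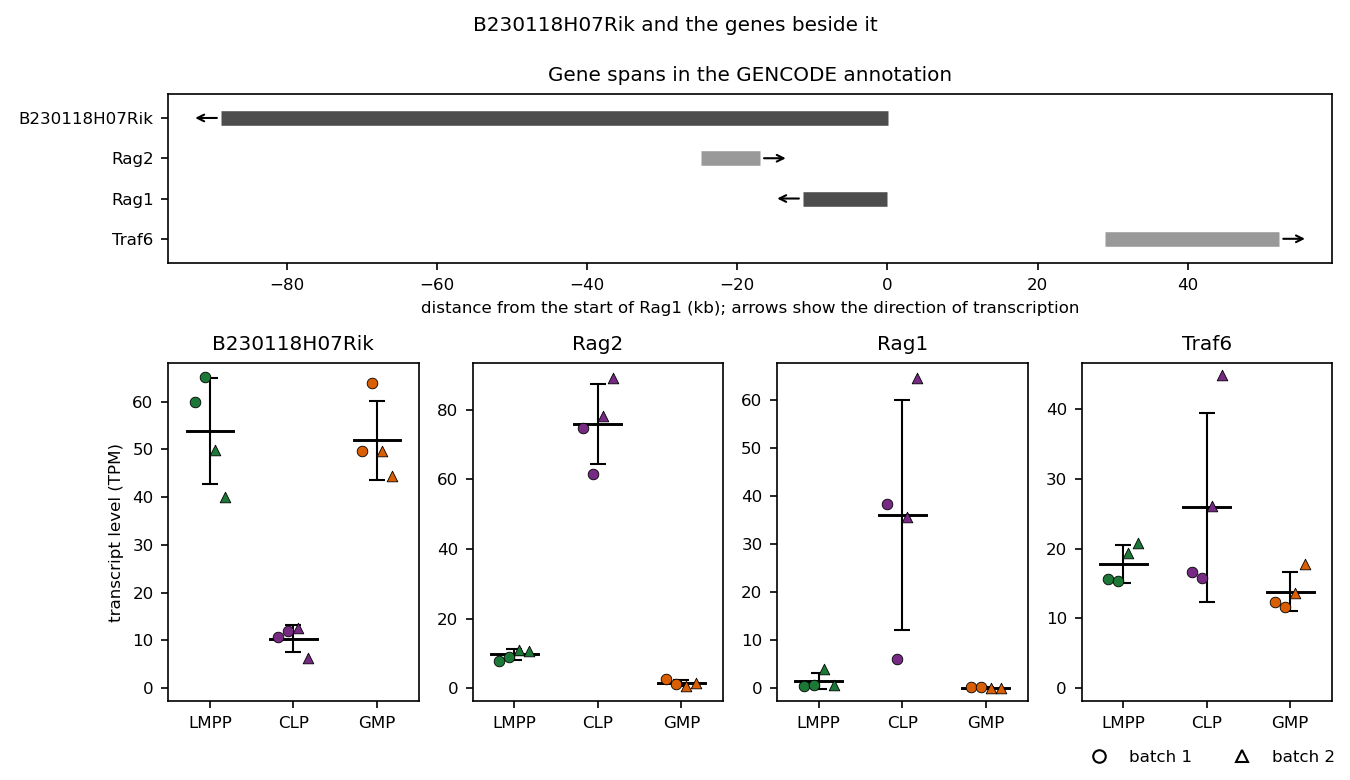
Top, spans of B230118H07Rik, Rag2, Rag1 and Traf6 by distance from the Rag1 start (kb), with arrows for the direction of transcription; bottom, level of each gene (TPM, own linear scale) in each library, with mean and SD (n = 4). CLP libraries are lowest for B230118H07Rik (10.4 TPM on average) and highest for Rag2 (75.9 TPM) and Rag1 (36.2 TPM).

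Promoters of this locus are shown because annotated transcripts of B230118H07Rik begin at both. Of its 12 annotated transcripts, 3 start within 100 bases of the Rag1 start and 4 within 1 kb of the RefSeq start of Iftap, which lies 20.5 kb away inside the gene. In mouse lymphocytes the gene has been described as transcribed from the Rag1 promoter, and in other cells from its own, which the factor ZFP143 (ZNF143 in human) binds. Gene-level TPM does not separate these starts. Capitals mark motif matches on either strand, and both windows are given along the reverse strand (GRCm38.p6). The Iftap window, chr2:101628982-101629281, holds 2 matches of ACTACANTT, at bases 190 and 239. Among all 32851 promoters 19 hold at least 2 (0.0578%), for a motif chosen after the sequence had been read. The Rag1 window, chr2:101649483-101649782, holds GGAAGT at base 102 (reverse strand), CAGCTG at base 123 and TGTGGT at bases 170 and 184. A match is a description of the letters and not a binding site.
B230118H07Rik: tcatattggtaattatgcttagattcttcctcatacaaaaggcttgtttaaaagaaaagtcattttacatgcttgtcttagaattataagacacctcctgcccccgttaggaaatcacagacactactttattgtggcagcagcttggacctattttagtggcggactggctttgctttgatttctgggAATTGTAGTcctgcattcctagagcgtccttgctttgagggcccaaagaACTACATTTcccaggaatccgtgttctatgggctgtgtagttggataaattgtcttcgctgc
Rag1: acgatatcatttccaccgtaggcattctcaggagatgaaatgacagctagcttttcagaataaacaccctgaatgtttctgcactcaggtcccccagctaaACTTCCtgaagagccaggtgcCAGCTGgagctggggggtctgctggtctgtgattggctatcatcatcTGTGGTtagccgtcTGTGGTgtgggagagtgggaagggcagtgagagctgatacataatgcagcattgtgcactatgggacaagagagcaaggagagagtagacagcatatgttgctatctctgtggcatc

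Among the other neighbours, Itgb5 was called higher in LMPP than in CLP. Up to 3 protein-coding genes on each side within 500 kb were taken for each of the 5 genes, 21 in all, of which 15 passed the filter. Against CLP, 1 was higher in LMPP and 2 (Rag1 and Rag2) were lower, where 7.23% and 2.8% of all tested genes were called. Itgb5, an integrin subunit gene that begins 9.73 kb beyond Muc13 on the same strand, stood at 4.08, 3.70, 1.94 and 4.66 TPM in LMPP, at 0.50, 0.37, 0.40 and 0 TPM in CLP, and at 0.73, 1.99, 1.94 and 2.36 TPM in GMP. It was higher in LMPP than in CLP (1.78 ± 0.299, adjusted p = 0.00417), with no library overlapping, and kept the call with each library left out. Its CLP values were near 0, and it passed the filter on low values through LMPP and GMP. Itgb5 failed the filter in batch 1 alone and was not called in batch 2 alone (adjusted p = 0.0587). Its difference from GMP was 0.74 ± 0.299 (adjusted p = 0.0825). Its levels were low beside those of Muc13. Fam210a beside Mc5r and Eif4b, a translation initiation factor gene beside Krt18, had the same order of means as the 5 genes and Itgb5, 3 of the 15 tested neighbours. Fam210a averaged 11.4 TPM for LMPP, 7.51 TPM for CLP and 9.47 TPM for GMP, and Eif4b averaged 229, 184 and 219 TPM in the same types. Every LMPP library was above every CLP library for both, and their differences, 0.55 ± 0.199 (adjusted p = 0.099) and 0.31 ± 0.118 (adjusted p = 0.118), were not called.

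Against GMP, 5 of the 15 neighbours were higher in LMPP and 1 was lower, where 21.3% and 7.62% of all tested genes were called. Besides Rag2, the higher ones were 3 genes on the other side of Muc13 and 1 beside Mc5r. Heg1, an endothelial membrane protein gene, averaged 48.4 TPM for LMPP, 40 TPM for CLP and 22.5 TPM for GMP (LMPP minus GMP 1.19 ± 0.268, adjusted p = 0.00634). Slc12a8, a transporter gene, differed by 1.19 ± 0.284 (adjusted p = 0.00872), and Zfp148, a zinc finger gene, by 0.61 ± 0.197 (adjusted p = 0.0354). None of these 3 was called against CLP, where Muc13 differed most. Ldlrad4, beside Mc5r, was higher in LMPP than in GMP (1.23 ± 0.237, adjusted p = 0.0026) but had its highest mean in CLP, 10.9 TPM against 6.30 TPM in LMPP.

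Beside Rab38, Ctsc (cathepsin C) was lower in LMPP than in GMP (-0.66 ± 0.22, adjusted p = 0.0419). The Zfp148 call was lost without LMPP batch 1 replicate 1 or 2, LMPP batch 2 replicate 3 or any 1 of the GMP libraries. The Ctsc call was lost without either LMPP library of batch 2 or any 1 of the GMP libraries (adjusted p up to 0.1 for Zfp148 and 0.121 for Ctsc). Umps, Kalrn, Rnmt, Fam210a, Eif4b, Spryd3 and Traf6 were called in neither comparison. Krt8, Krt78, Krt79, Mc2r, Grm5 and Tns2 did not pass the filter.

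**Figure D4:**
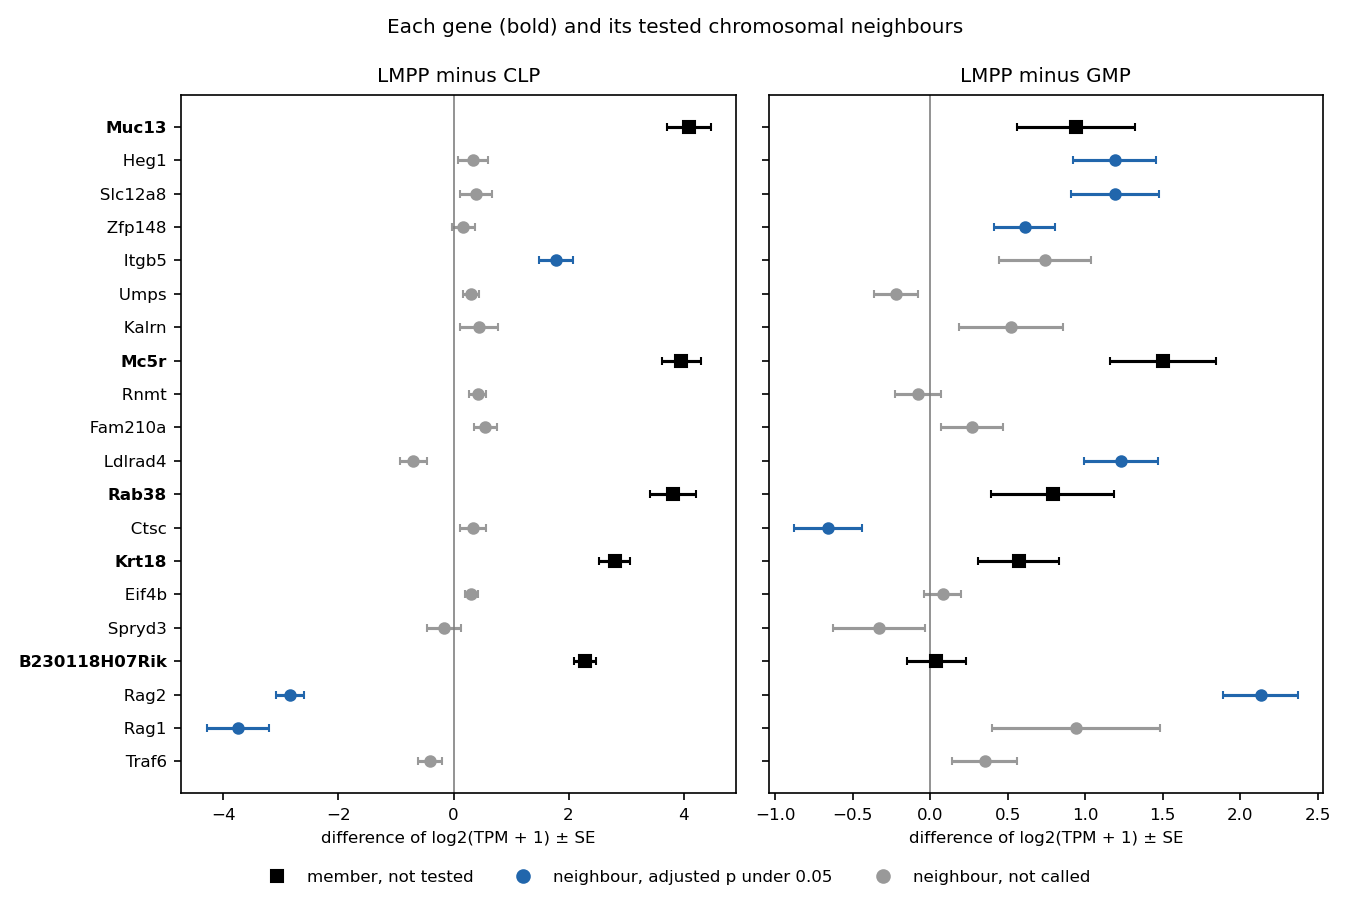
Difference of log2(TPM + 1) (horizontal axis, ± SE) of each gene (squares, bold) and its tested neighbours (circles, blue where the adjusted p is under 0.05), for LMPP minus CLP on the left and LMPP minus GMP on the right; the 2 panels have different scales. On the left Itgb5 (1.78) is the called neighbour on the side of the 5 genes, while Rag2 (-2.84) and Rag1 (-3.75) lie opposite B230118H07Rik (2.28).

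Genes of the same families and pathways were set beside the 5. The lists hold 138 genes, 136 of them in the table and 85 tested, and include Rag1, Rag2 and Traf6 a second time. Against CLP 8 were higher and 3 lower in LMPP, and against GMP 15 were higher and 6 lower, beside the shares of all tested genes given for the neighbours. Cd34, 1 of the 8, was a gate gene and is no finding. The split depended on the scaling. With median-ratio scaling it was 5 higher and 4 lower against CLP, and 11 and 15 against GMP. With quantile normalization it was 7 and 5, and 10 and 12. In the values as deposited the median difference of all tested genes was 0.17 for LMPP minus CLP and 0.24 for LMPP minus GMP, and median-ratio scaling brought both to within 0.01 of 0. The count against CLP also rested on single libraries: it fell from 11 in all to 6 without LMPP batch 1 replicate 1, 7 without its replicate 2, 5 and 6 without LMPP batch 2 replicates 1 and 3, and 7 without CLP batch 2 replicate 2. Of the 12 calls of named list genes and neighbours against CLP, 5 held with each library left out (Cd34, Emcn, Itgb5, Rag1 and Rag2), and of the 19 against GMP, 15 did. Median-ratio scaling ended the calls of Spn, Adcy9 and Cluap1 against CLP and of Zfp148 and Ift122 against GMP. Quantile normalization ended those of Adcy9 and Krt80 against CLP and of Adcy9, Crem, Ift122 and Zfp148 against GMP. Without the haemoglobin-rich pair, Adcy9 lost both calls, and Spn, Krt80 and Ift22 lost theirs against CLP. Rag1 then failed the filter and was not tested. The calls of Prkar2b, Prkacb, Chm and Ift20 against GMP, given further on, are not among the 19 and were not followed through these settings.

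Among mucins and mucin-like surface proteins, 5 of 18 listed genes were tested. Against CLP 3 were higher in LMPP and 0 lower (median 0.45 beside 0.17 for all tested genes), and against GMP 1 was higher and 0 lower (median -0.03 beside 0.24). Emcn, endomucin, a sialomucin of endothelium and early blood progenitors, was at 14.8, 19.0, 7.79 and 19.7 TPM in LMPP, at 2.92, 5.11, 0.82 and 4.00 TPM in CLP, and at 1.15, 0.50, 1.11 and 0.28 TPM in GMP. Its LMPP libraries were above all others, by 2.01 ± 0.371 over CLP (adjusted p = 0.00693) and 3.17 ± 0.371 over GMP (adjusted p = 0.000115). Unlike Muc13, Emcn had a higher mean in CLP (3.21 TPM) than in GMP (0.76 TPM). Summed stromal and endothelial markers ran from 1.64 to 12.3 TPM for LMPP, 1.31 to 4.95 TPM for CLP and 0.45 to 1.26 TPM for GMP, and their part was not tested. Cd34, higher by 2.72 ± 0.517 than in CLP (adjusted p = 0.00804), was a gate gene and is no finding. Spn, leukosialin, was higher by 0.45 ± 0.125 (adjusted p = 0.0401), a call that held only with LMPP batch 2 replicate 3 left out among the 12 libraries (adjusted p up to 0.108).

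The other melanocortin receptors were nearly silent. No library listed Mc1r, Mc2r, Mc3r, Mc4r or the accessory proteins Mrap and Mrap2 above 0.48 TPM, and Mc3r and Mc4r were at 0 throughout. Pomc, the precursor of the melanocortin ligands, was at 0.09, 0.39, 0.47 and 0.13 TPM in LMPP, at 0.35, 0.40, 1.37 and 11.82 TPM in CLP, and at 1.25, 0.14, 0.90 and 0.52 TPM in GMP, so 1 CLP library stood above all others. Agrp, an antagonist of brain melanocortin receptors, reached 1.14 TPM in LMPP batch 1 replicate 1 and was at most 0.27 TPM in every other library. Neither passed the filter. Of 30 listed genes of melanocortin and cyclic AMP signalling, 15 were tested. Against CLP 2 were higher and 0 lower in LMPP (median 0.31 beside 0.17), and against GMP 4 were higher and 2 lower (median 0.44 beside 0.24). Adcy9, an adenylate cyclase, had means of 3.09 ± 1.06 TPM for LMPP, 0.9 ± 0.672 TPM for CLP and 0.852 ± 0.418 TPM for GMP (SD, n = 4 each). It was higher in LMPP by 1.15 ± 0.326 over CLP (adjusted p = 0.0445) and 1.14 ± 0.326 over GMP (adjusted p = 0.0213). The call against CLP held only without CLP batch 1 replicate 2 and the call against GMP was lost without LMPP batch 2 replicate 3 or either GMP library of batch 1 (adjusted p up to 0.12).

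Prkar2b, a regulatory subunit of protein kinase A, was higher than in CLP (1.14 ± 0.252, adjusted p = 0.0163) and lower than in GMP (-0.96 ± 0.252, adjusted p = 0.0138), and its call against CLP was lost without LMPP batch 2 replicate 1 (adjusted p = 0.0501). Adcy6, another cyclase, and Crem, a transcription factor gene of the cyclic AMP response, were higher in LMPP than in GMP, by 1.32 ± 0.239 (adjusted p = 0.00188) and 1.14 ± 0.294 (adjusted p = 0.0125). Prkacb, a catalytic subunit of protein kinase A, was higher than in GMP by 0.56 ± 0.158 (adjusted p = 0.0187), and Atrn, attractin, was lower by 1.23 ± 0.222 (adjusted p = 0.00179). Pomc, Agrp and Prkacb, and Chm and Ift20 further on, were named after their values were seen. Neither cyclase exceeded 5 TPM in any library, so the fold is compressed by the added 1.

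Of 33 listed organelle partners of Rab38, 32 were tested, and against CLP limma called 0 (median 0.24 beside 0.17). The order of means LMPP above GMP above CLP was found in 7 of the 32, and in 15.4% of all tested genes. Rab32, the closest relative of Rab38 and a partner in melanosome formation, was at 13.6, 16.5, 17.7 and 16.8 TPM in LMPP, at 7.19, 13.0, 11.9 and 3.98 TPM in CLP, and at 37.3, 34.3, 39.6 and 50.1 TPM in GMP. Its highest values were in GMP, above every LMPP library, so it was lower in LMPP (-1.26 ± 0.288, adjusted p = 0.00681), on the opposite side from Rab38. Hps1 and Hps4, the subunits of the exchange factor BLOC-3 that activates both GTPases, and Ankrd27, their effector, were called in neither comparison. Hps1 averaged 4 TPM for LMPP, 4.03 TPM for CLP and 5.31 TPM for GMP, and Ankrd27 averaged 13.8, 9.13 and 19.3 TPM in the same types. Against GMP 2 of the 32 were higher in LMPP and 3 lower (median -0.04 beside 0.24). Chm, a Rab escort protein, was higher by 0.70 ± 0.181 (adjusted p = 0.0134). Ap3s1, an adaptor subunit, was lower by 2.69 ± 0.296 (adjusted p = 8.07e-05), with LMPP at 27.4 ± 6.38 TPM and GMP at 180 ± 23.8 TPM (SD, n = 4 each). Rab27a, a GTPase of secretory lysosomes, was lower by 0.85 ± 0.215 (adjusted p = 0.012).

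Krt18 was listed without its usual keratin partner, at a level left uncertain by the near copies named above. Krt8, the type II keratin with which it forms filaments in epithelia and which lies 23.7 kb away, never exceeded 0.62 TPM and was at 0 in all CLP libraries. Krt19 was at 0 throughout and Krt7 reached 2.22 TPM in 1 LMPP library. Of 54 keratin genes in the table, 2 passed the filter, Krt18 and Krt80. Krt80 was at 1.5, 0.48, 4.49 and 2.81 TPM in LMPP, at 0, 0, 0.74 and 0 TPM in CLP, and at 1.17, 0.41, 0.79 and 1.10 TPM in GMP, so LMPP and CLP libraries overlapped. It was higher in LMPP than in CLP (1.37 ± 0.33, adjusted p = 0.0241), but not without LMPP batch 1 replicate 1, either LMPP library of batch 2 or CLP batch 2 replicate 2 (adjusted p up to 0.0686). Among 28 listed intermediate filament genes 7 were tested, with 2 higher and 0 lower against CLP (median 0.38 beside 0.17) and 1 higher and 0 lower against GMP (median 0.43 beside 0.24). Plec, plectin, a linker of intermediate filaments, was higher than in CLP (0.98 ± 0.249, adjusted p = 0.0292), a call lost without LMPP batch 1 replicate 1 or either LMPP library of batch 2 (adjusted p up to 0.0851). Jup, plakoglobin, was higher than in GMP (1.54 ± 0.359, adjusted p = 0.0077). Vim, vimentin, the common filament of blood cells, had means of 278 ± 51.4 TPM for LMPP, 251 ± 171 TPM for CLP and 430 ± 156 TPM for GMP and was called in neither comparison.

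**Figure D5:**
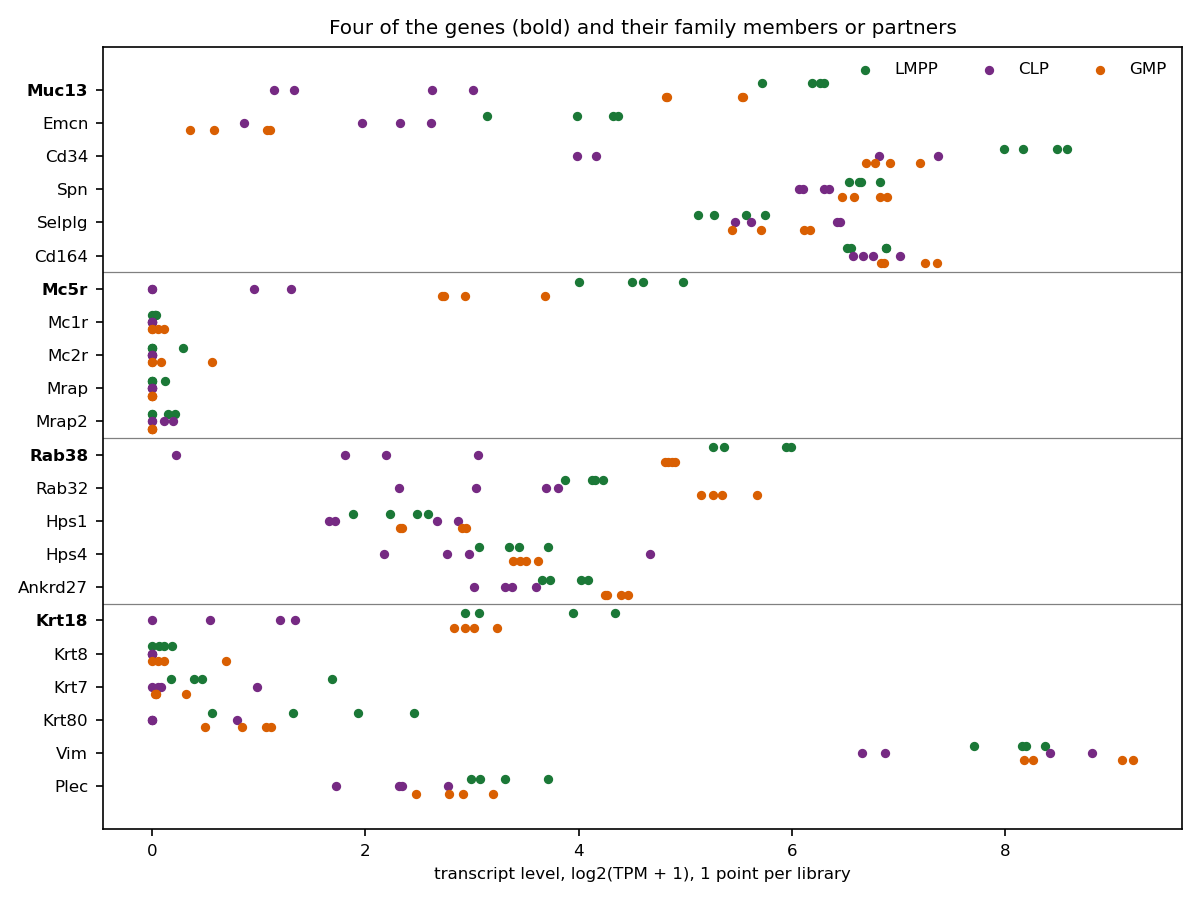
Level of Muc13, Mc5r, Rab38 and Krt18 (bold) and of genes of their families, as log2(TPM + 1) with 1 point per library and colours for LMPP, CLP and GMP. Krt8 stays at or below 0.62 TPM while Krt18 reaches 19.3 TPM, a level left uncertain by its near copies. The other melanocortin receptors shown are near 0, and Rab32 is highest in GMP where Rab38 is highest in LMPP.

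The list for B230118H07Rik held its locus and the intraflagellar transport genes, since RefSeq names it an associated protein of that machinery, which builds cilia. Of 29 listed genes 26 were tested. Against CLP 1 was higher and 3 lower in LMPP (median 0.04 beside 0.17), and against GMP 7 were higher and 1 lower (median 0.41 beside 0.24). Cluap1, of the transport complex, was higher in LMPP than in CLP (0.61 ± 0.149, adjusted p = 0.026) and Ift22 was lower (-0.77 ± 0.208, adjusted p = 0.0369). Cluap1 lost its call without LMPP batch 1 replicate 2, either LMPP library of batch 2 or CLP batch 2 replicate 2. Ift22 kept its call only without CLP batch 1 replicate 2 or GMP batch 2 replicate 2 (adjusted p up to 0.0818). Against GMP, Ift81 was higher by 2.31 ± 0.402 (adjusted p = 0.00144), with 16.4, 6.86, 12.1 and 12.8 TPM in LMPP and 1, 0.55, 1.08 and 5.34 TPM in GMP. Hspb11, also known as Ift25, was higher by 1.45 ± 0.31 (adjusted p = 0.00471). Ift122 was higher by 1.14 ± 0.336 (adjusted p = 0.0245), a call lost without LMPP batch 1 replicate 1, LMPP batch 2 replicate 3, either GMP library of batch 1 or GMP batch 2 replicate 1 (up to 0.0794). The lower gene was Ift20 (-0.75 ± 0.247, adjusted p = 0.0383). The order of means LMPP above GMP above CLP was found in 5 of the 26. B230118H07Rik itself had almost the same mean in LMPP and GMP.

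Genes most like the 5 across all 12 libraries were taken by Pearson correlation of log2(TPM + 1), as a description. The libraries share cell type and batch, which any gene with the same order of types would follow. Nfe2, a transcription factor gene of megakaryocytes and erythroid cells, was nearest to B230118H07Rik (r = 0.99) and Krt18 (r = 0.96) and among the nearest of Rab38 (r = 0.96), with means of 51 TPM for LMPP, 15.8 TPM for CLP and 51.5 TPM for GMP. Tfr2, a transferrin receptor gene, was among the 5 nearest of Muc13 (0.96), Krt18 (0.95) and B230118H07Rik (0.94), with means of 4.13 TPM for LMPP, 0.322 TPM for CLP and 2.88 TPM for GMP. Slco3a1, an organic anion transporter gene, was nearest to Rab38 (0.98) and among the nearest of Krt18 (0.94), at 49, 5.15 and 29.6 TPM in the same types. For Rab38 the nearest also included Serpina3g (0.97), Pafah2 and Cpq (both 0.96), for Krt18 Otos and Tspan32 (both 0.94), and for B230118H07Rik Fkbp9, Pafah2 and Tmem40 (each 0.96).

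Muc13 was most like Mdga1 (r = 0.98), which encodes a membrane-anchored adhesion protein, and then Skap2 (0.97), Ocrl and Cyp4v3 (both 0.96). Mc5r was most like Dapp1 (0.97), an adaptor of phosphoinositide signalling, with means of 250 TPM for LMPP, 59.7 TPM for CLP and 112 TPM for GMP, followed by Dapk1, Tspan32 and Cyp4v3 (each 0.96) and Lmo2 (0.95). Lmo2, a transcriptional adaptor of stem and progenitor cells, averaged 329 TPM for LMPP, 51.5 TPM for CLP and 125 TPM for GMP.

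Markers of epithelia and melanocytes, where Muc13, Krt18 and Rab38 are best known, were low. No markers of exocrine glands, named above for Mc5r, were examined, and none were chosen for B230118H07Rik. The 10 epithelial markers summed to between 0.94 and 3.90 TPM in LMPP and between 1.28 and 2.22 TPM in CLP. In GMP the sum lay between 1.10 and 5.88 TPM, and 3 of 10 markers were at 0 in every library. The highest sum, in GMP batch 2 replicate 1, came mainly from Cdh1 (5.57 TPM). Of 7 melanocyte markers 4 were at 0 in every library, among them Dct and Tyrp1. The sum ran from 2.91 to 5.15 TPM for LMPP, 2.22 to 3.97 TPM for CLP and 1.14 to 2.28 TPM for GMP, and came mainly from Tyr, the tyrosinase gene, at 2.66 to 4.56 TPM in LMPP. Summed megakaryocyte markers ran from 12.2 to 32.5 TPM for LMPP, 0.55 to 18.8 TPM for CLP and 23.6 to 50.1 TPM for GMP, while summed mast cell and basophil markers reached 103.6 TPM for LMPP, 195.5 TPM for CLP and 352.4 TPM for GMP. Both sums had their highest value in a GMP library. The part of epithelial cells, melanocytes, megakaryocytes, mast cells or basophils in the levels of the 5 genes was not tested.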

How the data were processed

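The authors deposited TPM, estimated transcript abundance relative to the library total, for 38924 Ensembl IDs. The submitters' processing notes name mm10, RSEM 1.2.12, Bowtie2 2.2.0 and edgeR 3.10.0, without order or settings. RSEM divides reads between similar transcripts, so near copies have uncertain values. Another 17 columns match no sample and were not used. Symbols came from GENCODE M21 (37607 IDs), promoters from RefSeq (entries matched for 3 of the 5 genes, not for Rab38 or Mc5r) and near copies from blastn 2.17.0 (at least 85% identity over 200 bases).

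A gene was tested where 4 or more of the 12 libraries had 1 TPM or more (12718 genes, 193 without a symbol). limma 3.58.1 in R 4.3.3 was run on log2(TPM + 1) with a variance trend, cell type and additive batch (8 residual degrees of freedom), or 1 mean per type and batch (6) for batch contrasts. Tests were two-sided, with Benjamini-Hochberg adjustment over all tested genes and calls at an adjusted p under 0.05. The fit was tested on simulated data.

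The 5 genes, the lists and the rules were chosen with earlier results of these data known. Named were the 5 genes, up to 4 called genes per list and comparison with the largest difference and at least 1 TPM in the higher type, the defining partners, all tested neighbours and the 5 most correlated genes per gene. Alternatives covered pseudocounts, filter, scaling, batch, pairing, samples in the fit and each library left out. TPM keeps no depth, so no counting interval is given. The values of 1 list gene are not reported here.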

Additional observations from a re-analysis of the deposited data

Results flagged for a closer look

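Within a type, a library was marked where its gap to the nearest of the other 3, divided by the range of the 4, exceeded Dixon's critical value. Of 146 groups of 4 libraries examined, 16 were marked. Chance marks about 1 in 20 where values are normally distributed. A group with 1 value above 0 and the others at 0 is always marked. Pomc and Agrp were added after their values were seen. The number marked can therefore not be set against that rate.

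Among the 5 genes, Mc5r in GMP batch 2 replicate 1 (11.85 TPM, against 5.59 to 6.63 TPM in the other GMP libraries) was marked. At the Rag locus, Rag1 in LMPP batch 2 replicate 1 was at 4.0 TPM, against 0.51 to 0.68 TPM in the other LMPP libraries, in the library with the highest erythroid and neutrophil markers. Beside Muc13, Heg1 in CLP batch 2 replicate 2 was at 65.52 TPM, the other CLP libraries lying between 27.64 and 33.49 TPM.

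Keratins gave 5 marked values. Krt8 was at 0.62 TPM in GMP batch 1 replicate 2, with at most 0.08 TPM in the other GMP libraries. Krt7 was at 2.22 TPM in LMPP batch 2 replicate 3 (others 0.13 to 0.38 TPM), 0.98 TPM in CLP batch 1 replicate 2 (others at most 0.06 TPM) and 0.25 TPM in GMP batch 1 replicate 1 (others 0.02 to 0.03 TPM). Krt80 was at 0.74 TPM in CLP batch 2 replicate 1 and at 0 in the other CLP libraries. Most of these lie below 1 TPM, where the depth behind a value is unknown.

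Melanocortin genes gave 6. Pomc was at 11.82 TPM in CLP batch 2 replicate 2 (others 0.35 to 1.37 TPM) and Agrp at 0.14 TPM in CLP batch 1 replicate 2 (others at 0). Mc2r was at 0.22 TPM in LMPP batch 2 replicate 3 (others at 0) and 0.48 TPM in GMP batch 2 replicate 1 (others at most 0.06 TPM), the library marked for Mc5r. Mrap was at 0.09 TPM in LMPP batch 2 replicate 1 and at 0 in the other LMPP libraries. Prkar2b was at 18.87 TPM in CLP batch 2 replicate 1, the other CLP libraries lying between 7.01 and 7.42 TPM. The remaining 2 were Hps4 in CLP batch 1 replicate 1 (24.4 TPM, others 3.51 to 6.83 TPM) and Ift81 in GMP batch 2 replicate 2 (5.34 TPM, others 0.55 to 1.08 TPM).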

How the results depend on the processing

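The difference between LMPP and CLP kept its sign for all 5 genes under every setting run, between 2.11 and 2.46 for B230118H07Rik, 2.59 and 4.19 for Krt18, 3.42 and 5.95 for Mc5r, 3.72 and 4.55 for Muc13 and 3.34 and 4.55 for Rab38. The low CLP values moved with the pseudocount. At 0.1, LMPP minus CLP was 5.95 for Mc5r, 4.55 for Rab38 and 4.19 for Krt18, CLP minus GMP was -4.33, -3.75 and -3.57, and 2 interactions of batch and type passed. At 0.5, Mc5r and Krt18 stood at 4.61 and 3.30, with CLP minus GMP at -3.05 and -2.71. In batch 1 alone Mc5r was at 3.42 over CLP, Krt18 at 1.12 over GMP, and CLP minus GMP at -1.70 for Mc5r and -1.76 for Krt18. In batch 2 alone these were 4.49, 0.03, -3.21 and -2.70. LMPP minus GMP shrank under both other scalings. With median-ratio scaling it was 0.66 for Muc13, 1.24 for Mc5r, 0.51 for Rab38 and 0.32 for Krt18. With quantile normalization these were 0.89, 1.26, 0.69 and 0.23. B230118H07Rik turned below GMP with median-ratio scaling (-0.24), quantile normalization (-0.01), batch 2 alone (-0.07) and without the haemoglobin-rich pair (-0.02), and ranged from -0.04 to 0.12 with each library left out. The cause was not tested.

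Members called between batches in CLP (2 as reported) were 0 with no filter and 1 with quantile normalization. In LMPP (0 as reported) there was 1 with either other scaling. These counts and that of the interactions also changed with single libraries left out. A group of type and batch then holds 1 library, and no share of all tested genes was computed, so those counts are not given.

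Called list genes against CLP (11 as reported) numbered 5 without a batch term, 4 with LMPP and CLP alone in the fit, 5 in batch 2 alone, 6 without the haemoglobin-rich pair and 5 to 14 with each library left out. Against GMP (21) they numbered 35 with LMPP and GMP alone in the fit, 8 in batch 2 alone and 14 to 30 with each library left out. Neighbours called against CLP (3) were 5 in batch 1 alone and 1 in batch 2 alone, and against GMP (6) 2 in batch 2 alone. Fits on fewer libraries have fewer residual degrees of freedom.

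The labels do not say that replicate numbers pair libraries. Deviations of libraries with a shared number correlated at -0.0451, 0.0265 and -0.0634 in batch 1 and at -0.0477 between CLP and GMP in batch 2. LMPP shares only number 1 with the other types in batch 2, at 0.169 with CLP (the haemoglobin-rich pair) and -0.106 with GMP. With the replicate block, 2 list genes were called against CLP, 0 of them higher, and 13 against GMP; Itgb5 had an adjusted p of 0.0575 against CLP.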
